A study of Mus musculus with 6 samples.

Results

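The EGR and NR4A activation-induced factors were examined as a set of 8 named genes, the zinc finger transcription factors Egr1, Egr2 and Egr3, their co-repressors Nab1 and Nab2, and the orphan nuclear receptors Nr4a1, Nr4a2 and Nr4a3. The 8 genes were found by matching Ensembl identifiers to GENCODE mouse gene names, among 56941 identifiers in the count table, and all 8 were among the 13299 genes with enough reads to be tested. Poly(A)+ RNA was sequenced from CD8+ T cells of the spleen of B6 mice. All 6 cultures were stimulated with plate-bound antibodies to CD3 and CD28 in the presence of rIL2 at 100 U/ml for 3 days, and 24 h after the start of activation they received S1P at 5 µM (3 samples) or vehicle (3 samples). S1P, sphingosine 1-phosphate, is a bioactive lipid that signals through cell surface receptors such as S1PR1. The labels call the 3 samples of a group biological replicates and do not say whether they came from separate mice, so p-values measure the spread between these samples. The comparison asks how exposure to S1P during activation changed the transcripts of these factors.

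EGR factors and NR4A receptors are among the genes that T cells switch on when the antigen receptor is engaged. Egr1 is driven by the Ras, ERK and serum response factor route, whereas Egr2 and Egr3 depend largely on calcium, calcineurin and NFAT and are known for raising inhibitors of receptor signalling in anergic T cells. NAB1 and NAB2 bind EGR proteins and hold back the transcription that these drive, and NAB2 is itself a target of EGR factors. NR4A receptors need no known ligand, report the strength of receptor signalling, and have been tied to T cell tolerance and exhaustion.

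Total counts ranged from 13636095 to 17089831 in vehicle and from 12048880 to 17384084 in S1P libraries. S1P replicate 2 had the lowest total and 7.80% of its counts on mitochondrially encoded genes, against 4.10% to 4.93% in the other 5 libraries. This library stood apart from its group across all genes, since its counts differed from those of S1P replicates 1 and 3 with a chi-square per gene of 32.0 and 18.6, against 3.84 to 6.06 in the other 4 pairs of replicates, so values without it are given as well. The labels describe purified naive CD8+ T cells from total splenocytes, whereas the study's methods name naive T cells or total splenocytes as the start of such cultures. The label CD8+ T cell was checked against marker lists. Cd8a, Cd8b1 and the T cell receptor complex genes were abundant. The 6 markers listed for CD8 T cells summed to 1091 to 1250 CPM (counts scaled to a common library total) in vehicle and 947 to 1052 in S1P. Of these, Cd3d, Cd3e, Cd3g and Trac are shared with CD4 T cells, so the sum does not give the share of CD8 T cells. Cd4 was also abundant, at a normalized count of 2998 ± 271 (SD, n = 3) in vehicle and 3220 ± 465 in S1P. Cd8a was at 3271 ± 367 in vehicle and 2056 ± 97.1 in S1P. As RPKM (counts divided by exon length and library size), Cd8a was at 61.0 in vehicle and 38.3 in S1P. Cd4 was at 45.2 RPKM in vehicle and 48.6 in S1P. The mean of Cd4 thus lay below that of Cd8a in vehicle and above it in S1P. The 5 B cell markers reported, Ms4a1 and Cd79a among them, summed to 461 to 574 CPM in vehicle and 484 to 576 in S1P. The cultures thus held transcripts that define CD4 T cells and B cells, whereas the 5 myeloid and 3 NK cell markers summed to at most 5.62 and 2.83 CPM in any library, and Lyz2 and Csf1r were at 0 in some of the libraries. Cd8a fell by 0.67 and Cd8b1 by 0.55 on the log2 scale, Cd40lg rose by 0.50 and Zbtb7b by 0.37, Ms4a1 fell by 0.39 and Ebf1 rose by 0.60, while Cd4 was not called. Without vehicle replicate 2, which had the highest Cd8b1 value, Cd8b1 was at -0.37 with an adjusted p of 0.0186 in edgeR's quasi-likelihood test. The call of Cd40lg was lost without vehicle replicate 2 or S1P replicate 3 and that of Ms4a1 without vehicle replicate 1 or vehicle replicate 3, with adjusted p of up to 0.0615 and 0.0513 in edgeR's quasi-likelihood test. The part of these markers in the results on the 8 genes was not tested, and in bulk RNA fewer cells of a type and less RNA per cell cannot be told apart.

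Levels below are counts scaled by the trimmed mean of M-values (TMM), which sets libraries to a common size. The 8 genes had small differences between groups, of both signs. Egr1 was the only one that passed both thresholds (an adjusted p up to 0.05, and a log2 fold change of 0.3 or more in either direction), and it was higher in S1P-treated cells. Thus 1 of 8 genes was called higher and 0 were called lower, beside 12.7% and 10.4% of all tested genes, or 23.1% called in either direction. A further 4 genes, Nr4a1, Nr4a2, Nr4a3 and Nab2, passed the adjusted p but had changes under 0.3, and are given here as values only. Of all 13299 tested genes, 3788 passed the adjusted p at any size, those called included. For 6 of the 8 genes vehicle and S1P values showed no overlap, as was the case for 45.6% of all tested genes. The median log2 fold change of the 8 genes was 0.15, with a range of -0.28 to 0.32, beside a median of 0.01 and quartiles of -0.20 and 0.26 over all tested genes. The 8 genes were well covered, with 455 to 7372 reads in a library, and the coefficient of variation within a group was 1.74% to 7.55% in vehicle and 2.97% to 13.5% in S1P.

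**Figure D1:**
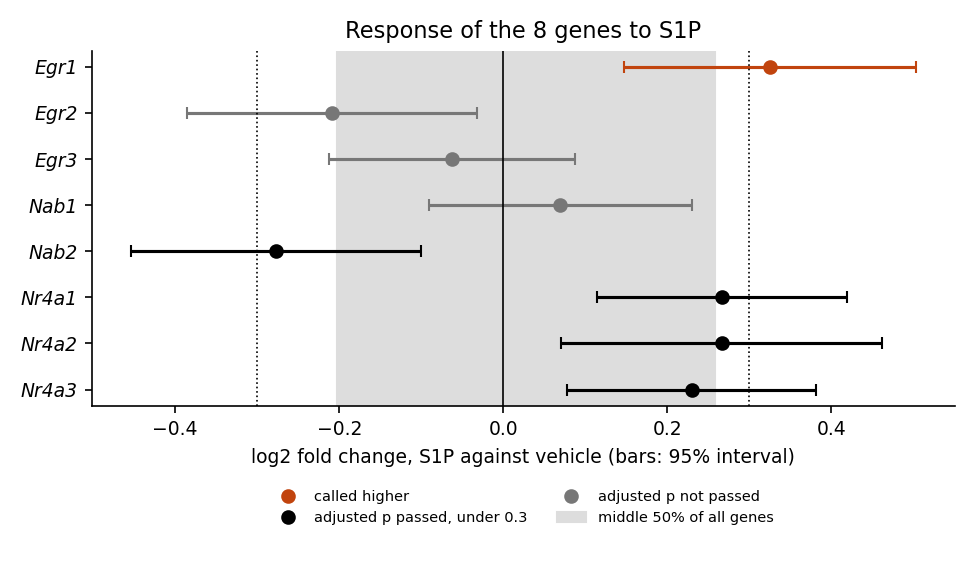
The horizontal axis gives the log2 fold change of S1P against vehicle with its 95% interval from edgeR for each of the 8 genes, dotted lines mark 0.3 in either direction, and grey marks the middle 50% of all tested genes. Egr1 lies at 0.32, the 3 NR4A genes lie between 0.23 and 0.27, and Nab2 and Egr2 lie at -0.28 and -0.21.

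Egr1 encodes an immediate early zinc finger factor, and lies on chromosome 18 at 34992876 to 34998049 on the plus strand (GRCm39, ENSMUSG00000038418). Its normalized counts were 1790.4, 1751 and 1917 in vehicle replicates 1, 2 and 3 and 2141, 2555 and 2148 in S1P replicates 1, 2 and 3. Each S1P sample lay above each vehicle sample, and S1P replicate 2 stood above the other S1P samples. Egr1 rose by 0.32 on the log2 scale (SE 0.08, 95% interval 0.15 to 0.50), a fold of 1.25, with an adjusted p of 0.0120 in edgeR's quasi-likelihood test. This call was close to the size threshold. Without S1P replicate 2 the log2 fold change was 0.24, under the size threshold, with an adjusted p of 0.00739. Without vehicle replicate 1 it was 0.31 with an adjusted p of 0.0579, and without vehicle replicate 2 it was 0.29 with an adjusted p of 0.0613 in edgeR. With library totals alone in place of TMM factors, and with no filter on low counts, it was 0.29.

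Egr2, the factor of the family most studied in T cell anergy, lies on chromosome 10 at 67371305 to 67378018 on the plus strand (ENSMUSG00000037868). Normalized counts of Egr2 were 1427, 1334 and 1550.3 in vehicle and 1140.4, 1327 and 1271 in S1P. Each S1P value lay below each vehicle value, but S1P replicate 2 and vehicle replicate 2 were nearly equal. Egr2 had a log2 fold change of -0.21 (SE 0.08, 95% interval -0.39 to -0.03), with an unadjusted p of 0.0245 and an adjusted p of 0.0735 in edgeR's quasi-likelihood test, so Egr2 was not called. Without S1P replicate 2 it was -0.26 with an adjusted p of 0.0187, still under the size threshold.

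Egr3, which acts in part redundantly with Egr2, lies on chromosome 14 at 70314350 to 70320063 on the plus strand (ENSMUSG00000033730). Egr3 had normalized counts of 2083, 2177 and 2239 in vehicle and 1953, 2193 and 2083 in S1P. The groups overlapped. Its log2 fold change was -0.06 (SE 0.07, 95% interval -0.21 to 0.09) with an adjusted p of 0.531 in edgeR's quasi-likelihood test, and the interval leaves out changes of 0.3 in either direction.

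**Figure D2:**
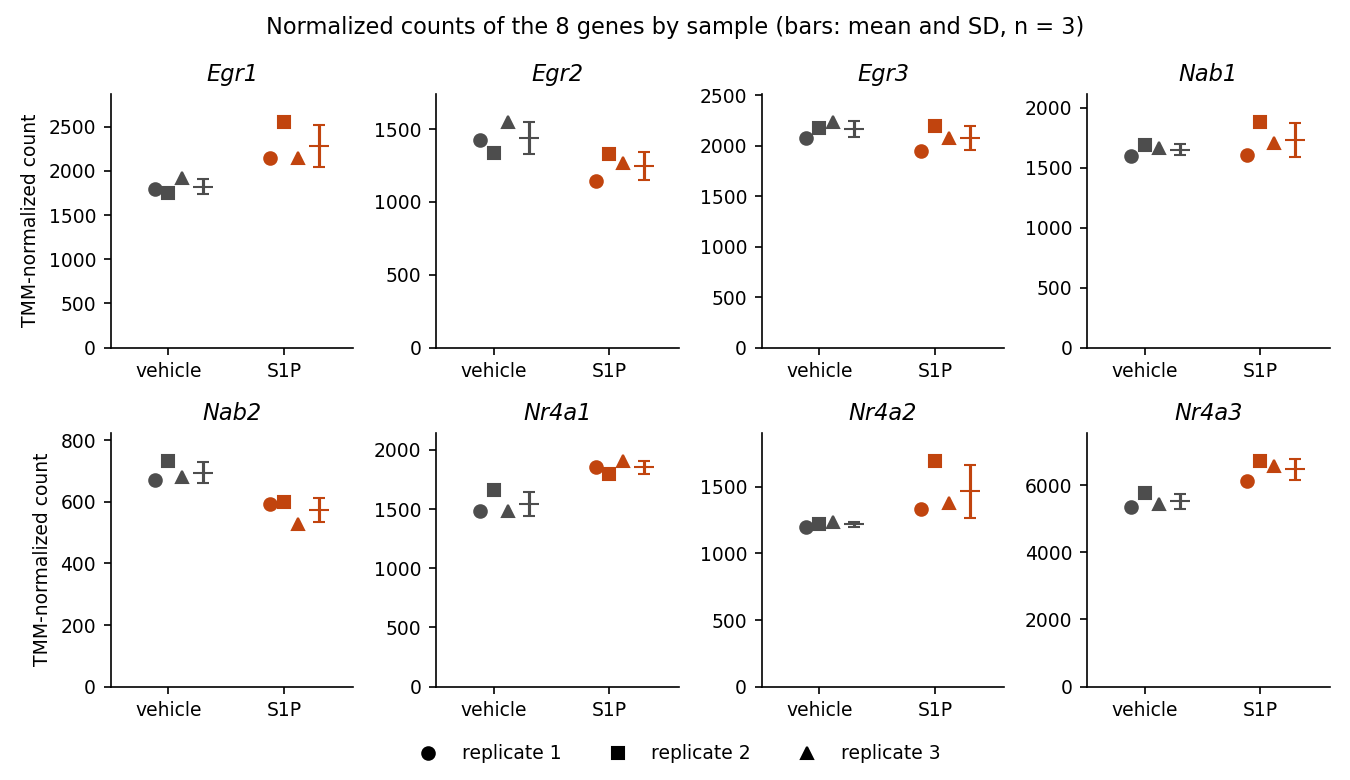
Each panel shows 1 gene, with TMM-normalized counts on a vertical axis from 0, a symbol for each of the 3 replicates of vehicle (grey) and S1P (orange), and the mean with its SD beside them. Vehicle and S1P samples do not overlap in Egr1, Egr2, Nab2, Nr4a1, Nr4a2 and Nr4a3 and overlap in Egr3 and Nab1.

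Neither EGR co-repressor was called. Nab1 lies on chromosome 1 at 52494147 to 52539838 on the minus strand (ENSMUSG00000002881). Its normalized counts were 1597, 1687 and 1662 in vehicle and 1603, 1883 and 1709 in S1P, and the groups overlapped. Nab1 had a log2 fold change of 0.07 (SE 0.07, 95% interval -0.09 to 0.23) with an adjusted p of 0.512 in edgeR's quasi-likelihood test. Nab2, the co-repressor whose own gene EGR factors switch on, lies on chromosome 10 at 127496786 to 127504458 on the minus strand (ENSMUSG00000025402). Nab2 had normalized counts of 671, 733 and 679 in vehicle and 594, 598 and 527 in S1P. Each S1P sample lay below each vehicle sample, and S1P replicate 3 was the lowest. With a log2 fold change of -0.28 (SE 0.08, 95% interval -0.45 to -0.10), a fold of 0.826, Nab2 had an adjusted p of 0.0245 in edgeR's quasi-likelihood test. It passed both thresholds without S1P replicate 1 (-0.31), without S1P replicate 2 (-0.30), with library totals alone (-0.30) and with no filter on low counts (-0.31). Without vehicle replicate 1 it passed the size threshold (-0.30) but not that of the adjusted p, which was 0.0560 to 0.0971 without vehicle replicate 1, 2 or 3 or S1P replicate 3. Exons of opposite-strand genes cover 38.1% of the exon bases of Nab2, with 1050 bases under Gm16229, 651 under Nemp1 and 77 under Stat6. The libraries were strand-specific, but the strand setting of the counting is not given in the sources used here. Gm16229 had at most 2 reads in any library. Nemp1 had a log2 fold change of 0.09 and Stat6 of 0.14, and neither was called. The part of opposite-strand reads in the Nab2 values was not tested.

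None of the 3 NR4A receptors was called, and for each of them all 3 S1P values lay above all 3 vehicle values. Nr4a1, which encodes NUR77, a widely used reporter of receptor signalling, lies on chromosome 15 at 101151980 to 101172681 on the plus strand (ENSMUSG00000023034). Its normalized counts were 1482, 1661 and 1482 in vehicle and 1855, 1798 and 1908 in S1P. The S1P group lay 0.27 higher on the log2 scale (SE 0.07, 95% interval 0.11 to 0.42), a fold of 1.20, with an adjusted p of 0.0148 in edgeR's quasi-likelihood test. Without vehicle replicate 2, Nr4a1 passed both thresholds, at 0.32 with an adjusted p of 0.0193 in edgeR, and Egr1 did not. Nr4a1 had an adjusted p of 0.0645 to 0.0854 without vehicle replicate 1, vehicle replicate 3 or S1P replicate 3. Its S1P values were the tightest of the 8 genes.

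Nr4a2 encodes NURR1 and lies on chromosome 2 at 56996842 to 57014331 on the minus strand (ENSMUSG00000026826). Its normalized counts were 1196, 1221 and 1239 in vehicle and 1331, 1696 and 1377 in S1P. S1P replicate 2 again stood apart from the other S1P samples, and the S1P group had the widest spread of the 8 genes. Nr4a2 had a log2 fold change of 0.27 (SE 0.09, 95% interval 0.07 to 0.46) with an adjusted p of 0.0438 in edgeR's quasi-likelihood test. It was 0.15 with an adjusted p of 0.0621 without S1P replicate 2, and 0.33, past both thresholds, without S1P replicate 1. Without vehicle replicate 1, 2 or 3 or S1P replicate 3 it was 0.25 to 0.30, with an adjusted p of 0.0610 to 0.141, and limma-voom gave 0.0510. Nr4a3, which encodes NOR1, lies on chromosome 4 at 48045153 to 48086447 on the plus strand (ENSMUSG00000028341). For Nr4a3 the normalized counts were 5349, 5777 and 5421 in vehicle and 6114, 6723 and 6567 in S1P. All S1P values again lay above all vehicle values. Nr4a3 had a log2 fold change of 0.23 (SE 0.07, 95% interval 0.08 to 0.38) with an adjusted p of 0.0282 in edgeR's quasi-likelihood test. It stayed under 0.3 in all 17 alternatives run, among which those that changed only the fold threshold could not move it. Its adjusted p was 0.0552 to 0.129 without vehicle replicate 1, 2 or 3 or S1P replicate 3.

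S1P replicate 2, the library with the high mitochondrial share, had the highest S1P value for 7 of the 8 genes, and Nr4a1 was the exception. Without this library the log2 fold changes were 0.24 for Egr1, -0.26 for Egr2, -0.10 for Egr3, 0.01 for Nab1, -0.30 for Nab2, 0.29 for Nr4a1, 0.15 for Nr4a2 and 0.20 for Nr4a3. The direction of each gene was thus kept, and Nab2 in place of Egr1 was the gene that passed both thresholds. The part of the mitochondrial share in these values was not tested.

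**Figure D3:**
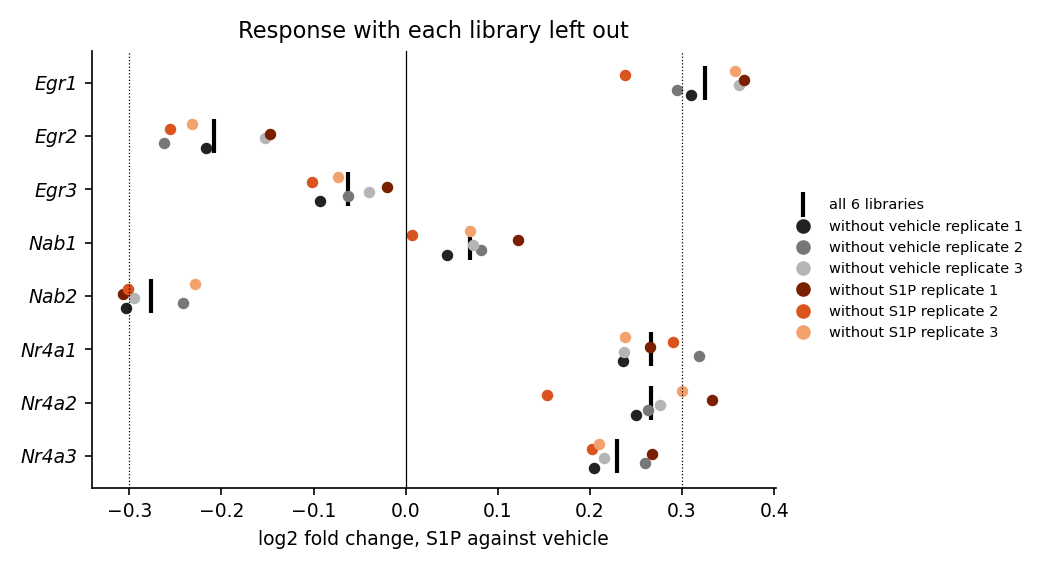
The log2 fold change of S1P against vehicle is on the horizontal axis, with a black bar for the fit to all 6 libraries and a point for the fit without each library. Egr1 ranges from 0.24 to 0.37 and Nab2 from -0.31 to -0.23, on both sides of the dotted 0.3 lines, and Egr1, Nab2 and the NR4A genes keep their direction.

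Promoter sequence is shown for the NR4A trio, whose S1P values all lay above vehicle, for Egr2, whose S1P values all lay below vehicle, and for Nab1, because of its EGR motifs. The sequences are from RefSeq promoter records (GRCm38.p6), placed on GRCm39 by exact match, in which 6 of the 8 genes had a record. In the 250 bases before the RefSeq start, the cAMP response element core TGACG was counted on both strands, so that a palindromic element counts on each strand. It occurs 4 times in each of Nr4a1, Nr4a2 and Nr4a3, and at least 4 matches occur in 45 of 32851 windows of all genes (0.137%). The windows are not alike in position. Those of Nr4a1 and Nr4a3 end 67 and 152 bases from the GENCODE canonical start, with 70 and 152 of their 250 bases in annotated exons, whereas that of Nr4a2 ends 7769 bases away and lies wholly in exons. The windows of Nr4a1, Nr4a2 and Nr4a3 have a GC content of 74.4%, 80.0% and 63.6%, against a median of 52.4%, and TGACG holds a CpG. Capitals mark the core in the following stretches, chr15:101164477-101164656 (plus strand), chr2:57014118-57014147 (minus strand) and chr4:48045055-48045152 (plus strand), cut to bases outside annotated exons or to 30 bases.
Nr4a1: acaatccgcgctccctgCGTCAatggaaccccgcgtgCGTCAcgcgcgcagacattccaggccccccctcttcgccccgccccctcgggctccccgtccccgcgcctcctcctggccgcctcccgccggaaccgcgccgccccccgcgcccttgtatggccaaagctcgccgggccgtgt
Nr4a2: cggccgggcTGACGgggccgcTGACGcgct
Nr4a3: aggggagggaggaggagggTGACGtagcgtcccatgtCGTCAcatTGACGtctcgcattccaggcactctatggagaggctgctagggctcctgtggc

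For Egr2 the window nearest to the canonical start was used (chr10:67373449-67373698, plus strand), and its 243 bases outside exons are shown (chr10:67373449-67373691). This window holds 2 matches to TGACG, a number reached in 3.9% of all windows. It also holds 1 CArG box, the element bound by serum response factor, which occurs in 1.47% of all windows. Capitals mark the CArG box and the 2 cores. The Nab1 window holds 3 matches to the EGR motif GCGNGGGCG, read on both strands, a number reached in 0.14% of all windows. This window has a GC content of 80.8%, against the median of 52.4%, for a motif made almost wholly of G and C, and 231 of its 250 bases lie in annotated exons. Capitals mark 1 of the 3 matches in the 30 bases at chr1:52539697-52539726 (minus strand). The windows of Nr4a1 and Nr4a2 hold 1 such match each, and 4.7% of windows hold at least 1. The Nab2 window holds none, but it ends 1886 bases from the canonical start and lies wholly in exons. The NR4A response element AAAGGTCA was not found on either strand in the windows of these genes. A match is a description of the sequence and shows no binding.
Egr2: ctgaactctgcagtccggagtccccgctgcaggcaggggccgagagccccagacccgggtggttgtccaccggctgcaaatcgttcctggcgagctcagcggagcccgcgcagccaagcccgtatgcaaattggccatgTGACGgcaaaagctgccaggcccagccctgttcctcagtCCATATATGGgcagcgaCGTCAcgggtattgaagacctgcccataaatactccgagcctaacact
Nab1: actcggccgcGCGTGGGCGggagccggagc

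Ratios of counts between 2 members of the same library do not depend on the scaling of libraries. These ratios were chosen after the values of the genes had been seen. The ratio of Egr1 to Egr2 was 1.25, 1.31 and 1.24 in vehicle and 1.88, 1.92 and 1.69 in S1P, with means of 1.27 ± 0.04 and 1.83 ± 0.12 (SD, n = 3). The groups were well apart, with a difference of 0.53 on the log2 scale. The ratio of Egr1 to its co-repressor Nab2 was 2.63 ± 0.22 in vehicle and 3.99 ± 0.34 in S1P, a log2 difference of 0.60 and the largest of all pairs. The ratio of Nab1 to Nab2 was 2.38 ± 0.07 in vehicle and 3.03 ± 0.29 in S1P. Of the 28 pairs, 19 did not overlap between groups, each with a two-sided exact permutation p of 0.1, the smallest that 3 against 3 samples allow, and 0.147 after Benjamini-Hochberg adjustment over the 28 pairs. The pairs reuse the same 8 genes, of which 6 had no overlap on their own, and ratios of other genes were not computed, so the count of 19 is a description and not a result about the members. Among the 3 NR4A genes the ratios overlapped, with log2 differences of 0.01 to 0.04, and Egr1 overlapped with each NR4A gene in the same way, at 0.05 to 0.09.

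**Figure D4:**
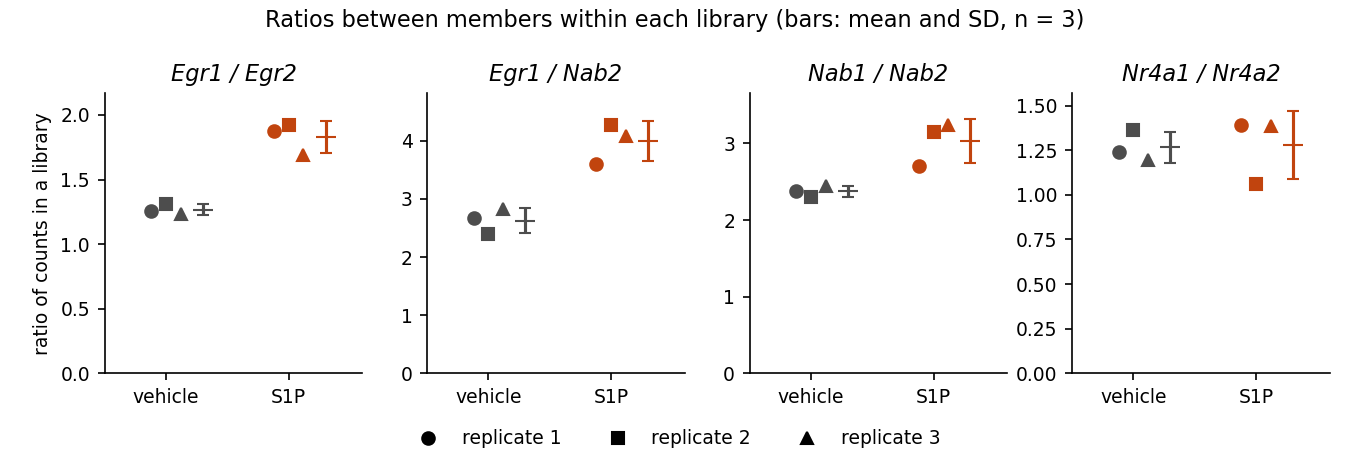
Each panel gives the ratio of counts of 2 genes in a library on a vertical axis from 0, with a symbol for each replicate and the mean with its SD for vehicle (grey) and S1P (orange). Ratios of Egr1 to Egr2, Egr1 to Nab2 and Nab1 to Nab2 are higher in all S1P samples, and the ratio of Nr4a1 to Nr4a2 overlaps between groups.

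Levels of different genes were compared as TMM-scaled RPKM, which divides counts by exon length and library size. Nr4a3 had the highest level of the 8 genes in both groups, at 62.5 ± 2.60 RPKM in vehicle and 73.3 ± 3.58 in S1P. In vehicle the EGR genes followed, at 31.2 ± 1.14 RPKM for Egr3, 28.6 ± 2.16 for Egr2 and 27.5 ± 1.31 for Egr1, and the samples of Egr2 overlapped with those of both its neighbours. In S1P the order was Egr1 at 34.4 ± 3.57 RPKM, Egr3 at 29.9 ± 1.73 and Egr2 at 24.8 ± 1.91, and the samples of these genes did not overlap. Nab1 lay below them, at 15.8 ± 0.44 RPKM in vehicle and 16.6 ± 1.35 in S1P. In vehicle, Nab2 at 10.1 ± 0.49, Nr4a2 at 10.1 ± 0.17 and Nr4a1 at 9.59 ± 0.64 RPKM overlapped, whereas in S1P Nr4a2 at 12.1 ± 1.64 and Nr4a1 at 11.5 ± 0.34 lay above Nab2 at 8.33 ± 0.58. With the longest transcript as length, Egr1 at 26.4 to 28.9 RPKM lay wholly below Egr2 at 30.5 to 35.4 in vehicle. The EGR genes overlapped in S1P with that length, since Egr3 reached 33.7 RPKM against a lowest Egr1 of 32.3, and Egr2 reached 30.3 against a lowest Egr3 of 30.02. With that length, Nr4a1 and Nr4a2 had 15.8 and 15.5 RPKM in vehicle and lay above Nab2 at 10.5 there too. Nab1 had a mean of 17.7 RPKM in vehicle with that length. In S1P the means of Nr4a1 and Nr4a2, 19.0 and 18.7 RPKM, were slightly above that of Nab1, 18.6, unlike the order with exon length.

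Sums and shares within each family are given as a description, with no test. The summed level of Egr1, Egr2 and Egr3 was 87.3 ± 4.17 RPKM in vehicle and 89.2 ± 6.82 in S1P, within the spread of the samples. The share of Egr1 in that sum was 31.4% ± 0.15 in vehicle and 38.6% ± 1.51 in S1P, and the share of Egr2 was 32.8% ± 1.11 and 27.8% ± 0.87. In the NR4A family the sum went from 82.2 ± 3.28 to 97.0 ± 4.82 RPKM, while the share of Nr4a3 was 76.1% ± 0.14 in vehicle and 75.6% ± 0.54 in S1P. Nab2 made up 39.1% ± 0.73 of the NAB sum in vehicle and 33.5% ± 2.22 in S1P.

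Among 8 relatives and partners of these factors, 6 were tested, 0 were called higher and 2 were called lower, with a median log2 fold change of -0.22, beside 12.7% called higher and 10.4% called lower of all tested genes. Ddx20, which encodes a DEAD-box protein that interacts with EGR proteins, fell by 0.40, from a normalized count of 1093 ± 37.8 to 827 ± 30.9. Egr4, the remaining EGR gene, was scarce and was named after its values were seen. Egr4 had 29, 29 and 22 reads in vehicle and 21, 8 and 7 in S1P, and fell by 1.02 on the log2 scale with an adjusted p of 0.0399 in edgeR's quasi-likelihood test. With DESeq2 the adjusted p of Egr4 was 0.0703, and it lost its call without any 1 of vehicle replicates 1, 2 and 3 or S1P replicates 2 and 3, with log2 fold changes between -1.15 and -0.82 and adjusted p of 0.0616 to 0.139. The partner receptors Rxra and Rxrb were not called, and Wt1 and Rxrg had too few reads to be tested.

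The routes that switch these genes on were represented by 28 genes, all tested, of which 5 were called higher and 3 lower, and the median was 0.02. These counts lie near the 12.7% and 10.4% of all tested genes, so the values that follow are those of single genes and not a result about the routes. Crem, which encodes cAMP-responsive element modulator proteins, was at 512, 509 and 540.2 normalized counts in vehicle and 1235, 1112 and 1120.2 in S1P. All S1P values were far above all vehicle values, and Crem rose by 1.15 on the log2 scale with an adjusted p of 1.1e-05 in edgeR's quasi-likelihood test. Mapk3, which encodes the kinase ERK1, rose by 0.49, Sos1, an exchange factor that activates Ras, rose by 0.44, and Ppp3cc, a catalytic subunit of calcineurin, rose by 0.36. The ERK kinase gene Map2k1 rose by 0.35 with an adjusted p of 0.0300 in edgeR's quasi-likelihood test. The call of Map2k1 was lost without vehicle replicate 1, 2 or 3, without S1P replicate 1 or 3 and with library totals alone, with log2 fold changes of 0.25 to 0.38 and adjusted p of 0.0629 to 0.135 in edgeR. Srf, which encodes serum response factor, fell by 0.44, from 763 ± 19.6 to 565 ± 34.5 normalized counts. The ERK kinase gene Map2k2 and the calcineurin inhibitor gene Cabin1 each fell by 0.42, and the call of Map2k2 was lost without vehicle replicate 1, with an adjusted p of 0.0615 in edgeR. The NFAT genes Nfatc1, Nfatc2 and Nfatc3 and the factor genes Creb1 and Atf1 were not called.

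Of 14 genes tied to EGR2 and EGR3 in T cells, 4 were called higher and 3 lower, with a median of 0.09, beside 12.7% and 10.4% of all tested genes. The cell cycle inhibitor gene Cdkn1a rose by 1.06, from 576 ± 54.7 to 1202 ± 119 normalized counts. Socs3, a suppressor of cytokine signalling, rose by 0.84, and Tnfrsf9, which encodes the co-stimulatory receptor 4-1BB, rose by 0.62. Rnf128, which encodes the anergy-associated ubiquitin ligase GRAIL, rose by 2.49 from a low level, 3.48 ± 0.28 to 19.8 ± 5.92 normalized counts, and was named after its values were seen. On the lower side, Crtam, an adhesion receptor of activated T cells, fell by 1.04, the diacylglycerol kinase gene Dgkz fell by 0.43, and Nrgn fell by 0.87. The call of Nrgn was lost without vehicle replicate 1, vehicle replicate 2 or S1P replicate 1, with log2 fold changes of -1.02 to -0.66 over the libraries left out and an adjusted p of up to 0.0895 in edgeR. The ubiquitin ligase genes Cblb and Itch and the kinase gene Dgka were not called. Of these, Cblb passed the adjusted p (0.0335 in edgeR's quasi-likelihood test) but not the size threshold, with a log2 fold change of 0.26.

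Of 12 genes tied to NR4A factors in T cells, 3 were called higher and 1 lower, with a median of 0.24, beside 12.7% and 10.4% of all tested genes. Ctla4, an inhibitory receptor, rose by 0.94, from 3744 ± 1022 to 7172 ± 241 normalized counts. Ikzf2, which encodes HELIOS, rose by 0.49, and Tox, a factor of exhausted T cells, rose by 0.46. The call of Tox was lost without vehicle replicate 2, vehicle replicate 3 or S1P replicate 2, with log2 fold changes down to 0.29 and an adjusted p of up to 0.0741 in edgeR. Pdcd1, which encodes the inhibitory receptor PD-1, fell by 0.74, from 747 ± 23.2 to 445 ± 50.2 normalized counts. Havcr2, Tigit, Lag3, Irf4 and Batf were not called. Of these, Irf4 passed the adjusted p (0.0156 in edgeR's quasi-likelihood test) but not the size threshold, with a log2 fold change of 0.27.

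The other early activation genes had log2 fold changes of -1.76 to 1.70. Of these 33 genes, all tested, 13 were called higher and 5 lower, with a median of 0.23, beside 12.7% and 10.4% of all tested genes, and 28 showed no overlap between groups, beside 45.6%. Ier3, an immediate early gene, rose by 1.70, from 45.9 ± 9.0 to 148 ± 20.05 normalized counts, the AP-1 gene Jun rose by 1.27, from 489 ± 77.5 to 1181 ± 130, and Nfil3, which encodes a basic leucine zipper factor, rose by 1.12, from 525 ± 92.0 to 1141 ± 111. The chemokine genes Xcl1, Ccl3 and Ccl4 fell by 1.76, 1.21 and 1.05. Fos, Fosb and Myc were not called. Without S1P replicate 2, the counts called higher and lower were 0 and 1 for the relatives and partners, 6 and 3 for the routes, 5 and 3 for the genes tied to EGR2 and EGR3, 4 and 1 for those tied to NR4A factors, and 15 and 4 for the other early activation genes. In that fit, 1588 of all 13657 tested genes were called higher and 1252 lower. The lists were not compared by a test, and Lag3 and Irf4 each stand in 2 lists.

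**Figure D5:**
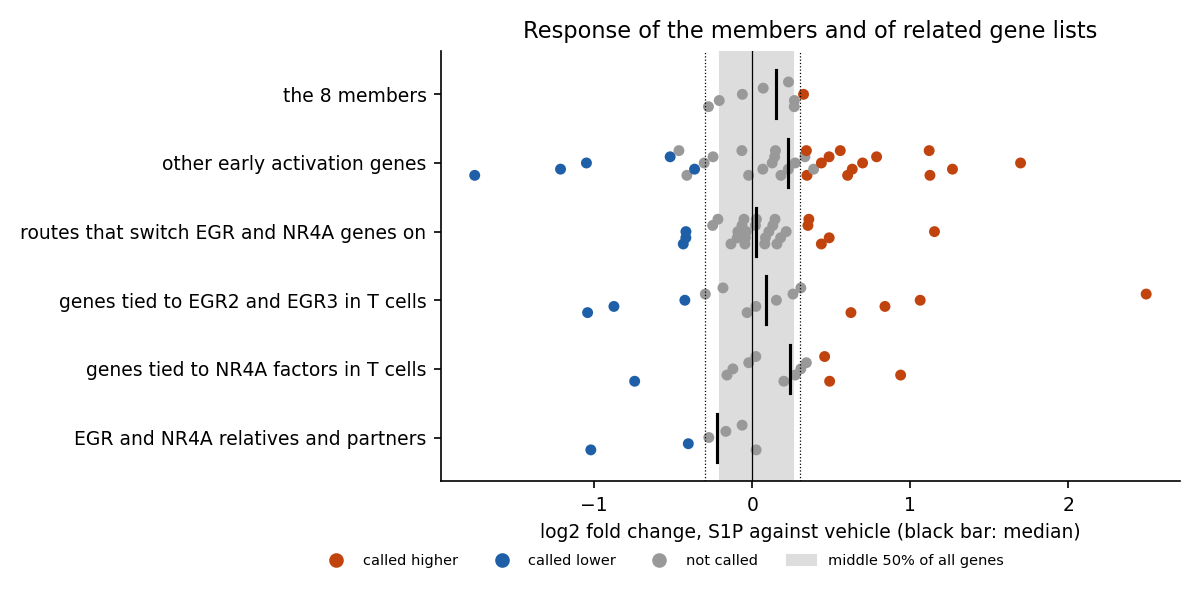
Each point is a tested gene at its log2 fold change of S1P against vehicle on the horizontal axis, orange when called higher, blue when called lower and grey otherwise, with a black bar at the median of each list and grey for the middle 50% of all tested genes. The 8 members span -0.28 to 0.32, and the other early activation genes span -1.76 to 1.70.

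The profiles of the 8 genes over the 6 samples were compared by the root-mean-square difference of centred log2 CPM. Among the 28 pairs of members, Egr1 and Nr4a2 were the closest, at 0.052, followed by Nr4a1 and Nr4a3 at 0.060, and Egr1 and Nab2 were the farthest, at 0.317. Egr1 was therefore closer to an NR4A gene than to Egr2, from which it differed by 0.271, and Egr2 was closest to Egr3, at 0.093. Among 11068 genes compared, the nearest to each member lay at 0.013 to 0.033 and the next nearest at up to 0.036, against medians of 0.177 to 0.245. They were Lrif1 and Ggh for Egr1, Mrps6 and Surf6 for Egr2, Ldb1 and Bag1 for Egr3, Slc25a46 and Ap3s1 for Nab1, Tfb2m and Neu1 for Nab2, Me2 and Add3 for Nr4a1, Cenpq and Rsrc2 for Nr4a2, and BE692007 and Mtbp for Nr4a3. No member was among the 2 nearest genes of another.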

How the data were processed

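The authors deposited whole-number counts per Ensembl gene, made with Trim Galore, STAR and featureCounts per the submitters' processing notes, with GRCm39 as the build and no tool versions. The annotation release and strand setting are not given in the sources used here. Of 56941 identifiers, 56323 were named with GENCODE vM39, 34414 had at least 1 count, and filterByExpr kept 13299. Normalized counts and RPKM are counts scaled here by TMM factors. Treatment was tested with edgeR 4.0.16 (quasi-likelihood, R 4.3.3) and Benjamini-Hochberg adjustment over all tested genes, and a call needed an adjusted p up to 0.05 with a log2 fold change of 0.3 or more in either direction, as in the study, which used DESeq2. Centred log2 CPM used a prior count of 2.

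The members, lists and tests were chosen with earlier results of these data known. The text names all 8 members, and from each list up to 3 called genes with the largest rise and 3 with the largest fall at a mean log2 CPM of at least 1, plus the 2 nearest profiles of each member. Further names in the lists say which members were or were not called. The lists, written from general knowledge, were relatives and partners, routes of induction, genes tied to EGR2 and EGR3, genes tied to NR4A factors, other early activation genes, and CD8, CD4, B, myeloid and NK cell markers, of which 1 B cell marker is not reported here. Alternatives were DESeq2 1.42.0, limma-voom 3.58.1, other scalings and filters, other fold thresholds, mitochondrial genes left out, a replicate block, each library left out, and transcript length. Replicates of a group differed by more than sampling noise, with a chi-square per gene of 3.84 to 32.0, the highest in the 2 pairs that hold S1P replicate 2. Promoter records came from RefSeq.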

Additional observations from a re-analysis of the deposited data

How the results depend on the processing

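No member changed direction in any of the 17 alternatives run for each. Those that changed only the fold threshold keep the fold changes of the reported fit and could not change a direction. The number of members called higher, 1 in the reported fit, was 0 with library totals alone, 0 with no filter on low counts, 0 at a log2 fold change of at least 1, and 4 with no fold threshold, and ranged from 0 to 2 with each library left out. The number called lower, 0 in the reported fit, was 1 with library totals alone, 1 with no filter, 1 with no fold threshold, and ranged from 0 to 1 with each library left out, the gene being Nab2. Of all 13299 tested genes, 1949 were higher and 1839 lower with no fold threshold. At a log2 fold change of at least 1, 383 were higher and 82 lower. Library totals alone gave 1498 higher and 1511 lower, and no filter on low counts gave 1727 and 1608 of 34414 genes. With each library left out 1158 to 1736 genes were higher and 961 to 1492 lower, the fewest without vehicle replicate 3. The share of calls that were higher was 54.9% in the reported fit, 60.4% with upper-quartile factors and 49.8% with library totals alone. The replicate block gave 1697 higher and 1423 lower genes and the same member counts. Same-numbered samples deviated together with correlations of 0.12, -0.01 and 0.05, so the numbers were not taken as pairs. At these depths counting error of the lowest member count is 4.69%. Changes under 0.3 in size rest on 3 samples a group, and Egr4 and Rnf128 on few reads.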
